A study of Homo sapiens with 6 samples.

Results

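The metallothioneins and the zinc response of LoVo cells were examined in 10 genes, chosen by name. They were the 8 metallothionein genes MT1A, MT1E, MT1F, MT1G, MT1H, MT1M, MT1X and MT2A, the zinc sensor MTF1 and the zinc exporter SLC30A1. All 10 were among the 19223 gene symbols of the deposited table, which lists them in 12 transcript rows, and each gene was represented by its transcript of highest mean across the 6 libraries. LoVo is an established human cell line derived from a colorectal adenocarcinoma of Dukes' type C. RNA came from 3 Control samples, which received vehicle, and from 3 samples with 2.5 μM DCC-2036 (Rebastinib), a tyrosine kinase inhibitor, both for 48 h by the sample labels, although a figure legend of the study gives a shorter time. The samples share 1 cell line and the labels name no genetic change, nor do they say whether the samples were separate cultures, so p-values measure the spread between these libraries, which may be technical.

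Metallothioneins are small cysteine-rich proteins of the cytosol that bind zinc, copper and cadmium through their thiol groups and buffer free zinc. When zinc rises or cadmium enters the cell, the zinc-finger factor MTF1 binds metal response elements in the promoters of the metallothionein genes and of SLC30A1 and switches them on, so that zinc is bound and pumped out. In the intestinal epithelium this system handles zinc taken up from the diet, and metallothionein genes also answer to glucocorticoids and to oxidative stress.

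The deposited values are normalized by the authors to a common depth and are neither reads nor values per length. In DCC-2036 libraries the expressed metallothioneins were 1.6 to 2.33 times as high as in Control, whereas MTF1 and SLC30A1 were called in neither direction. SE is the standard error of limma. Of the 10 members, 6 reached a value of 10 or more in 3 or more libraries, which was required for a test. Of these 6, MT2A, MT1E, MT1X and MT1F were called higher and 0 members lower at an adjusted p-value under 0.01 (limma on log2(value + 1), 2-sided, Benjamini-Hochberg over 12725 tested genes), and at an unadjusted p-value under 0.05 the counts were also 4 and 0. Among all tested genes, 41.9% were called, 19.2% as higher and 22.7% as lower. The same 4 members had every DCC-2036 value above every Control value, as had 32.9% of all tested genes, and 0 members had the reverse, as had 38.1%. Without Control replicate 1 or DCC-2036 replicate 2, 1 member (MT1E) was called, and without Control replicate 2 or 3, or with equal totals, 2 were. The median log2 fold change of the 4 tested metallothioneins was 0.95, beside -0.09 over all tested genes. With the libraries scaled to equal totals the median over all genes moved to -0.29, and the share of calls that were higher went from 45.8% to 32.7%. The other 4 metallothionein members, MT1A, MT1G, MT1H and MT1M, stayed near or at 0 and were not tested. These are values of bulk RNA, in which a change in the share of some cells and a change in RNA per cell cannot be told apart.

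The 8 metallothionein members lie together on chromosome 16 between 56608199 and 56684196 (GRCh38, GENCODE 29), a stretch of 76.0 kb. Going along the chromosome, the order is MT2A, MT1E, MT1M, MT1A, MT1F, MT1G, MT1H and MT1X, with MT1G on the reverse strand and the other 7 on the forward strand. MTF1 (37809567 to 37859620) and SLC30A1 (211571568 to 211578742) are on the reverse strand of chromosome 1. The deposited table names RefSeq transcripts and gives no genome build.

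The bases before the transcription start are shown for 4 members, because metal response elements are known from such regions and because these members differ in the libraries: MT2A and MT1X were higher with DCC-2036, MT1H was listed at 0 and SLC30A1 was not called. Promoters of 5 of the 10 members matched (MT2A, MT1X, MT1H, SLC30A1 and MTF1), and MT1A, MT1E, MT1F, MT1G and MT1M did not. The sequences are the 250 bases before the RefSeq start in GRCh38.p14, from 5′ to 3′ on the gene's strand, at chr16:56608334-56608583 (MT2A, forward), chr16:56682220-56682469 (MT1X, forward), chr16:56669564-56669813 (MT1H, forward) and chr1:211579162-211579411 (SLC30A1, reverse). In GENCODE 29 the gene models of MT2A and MT1X begin further upstream, so that the MT2A window and the end of the MT1X window lie inside them. Capitals mark each match to the core of the metal response element, searched as TGCACNC and TGCGCNC on both strands, so that a match on the other strand reads in reverse complement.
MT2A: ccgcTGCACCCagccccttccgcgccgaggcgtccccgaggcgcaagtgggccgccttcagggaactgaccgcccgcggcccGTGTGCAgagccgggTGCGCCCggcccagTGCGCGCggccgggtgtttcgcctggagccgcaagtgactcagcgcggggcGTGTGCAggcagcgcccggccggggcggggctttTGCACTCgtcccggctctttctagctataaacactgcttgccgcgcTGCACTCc
MT1X: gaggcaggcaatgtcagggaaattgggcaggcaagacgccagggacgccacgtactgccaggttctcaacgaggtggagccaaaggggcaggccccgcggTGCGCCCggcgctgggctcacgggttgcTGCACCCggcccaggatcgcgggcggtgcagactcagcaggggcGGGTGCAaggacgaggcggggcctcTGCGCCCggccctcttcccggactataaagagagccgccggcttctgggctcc
MT1H: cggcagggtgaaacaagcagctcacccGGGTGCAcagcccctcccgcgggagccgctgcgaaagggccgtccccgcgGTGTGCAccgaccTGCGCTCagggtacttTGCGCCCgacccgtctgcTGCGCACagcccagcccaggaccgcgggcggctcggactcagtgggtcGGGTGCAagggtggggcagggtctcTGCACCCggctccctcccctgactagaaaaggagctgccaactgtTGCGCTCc
SLC30A1: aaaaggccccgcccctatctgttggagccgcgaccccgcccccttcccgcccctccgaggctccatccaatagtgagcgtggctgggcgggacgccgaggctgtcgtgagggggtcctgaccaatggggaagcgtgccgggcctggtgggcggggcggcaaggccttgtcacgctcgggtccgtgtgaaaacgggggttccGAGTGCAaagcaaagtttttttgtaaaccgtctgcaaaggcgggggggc

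MT2A held 7 cores in this window, MT1H 8, MT1X 4, SLC30A1 1 and MTF1 0, and no matches overlapped. Of 35116 promoter windows of the same length in the RefSeq table, 24.8% held at least 1 core, 0.370% at least 4 and 0.0513% at least 6. Of the 5, MT1H had the most cores and was the one at 0 in every library. MT1E and MT1F had no matched promoter, and whether the number of cores goes with the level was not tested. Counted back from the start, a core ran from -8 to -2 in both MT2A and MT1H, from -54 to -48 in MT2A, and from -53 to -47 in both MT1X and MT1H, and the core of SLC30A1 ran from -49 to -43. A match is a description of the letters and does not show that a factor binds there.

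**Figure D1:**
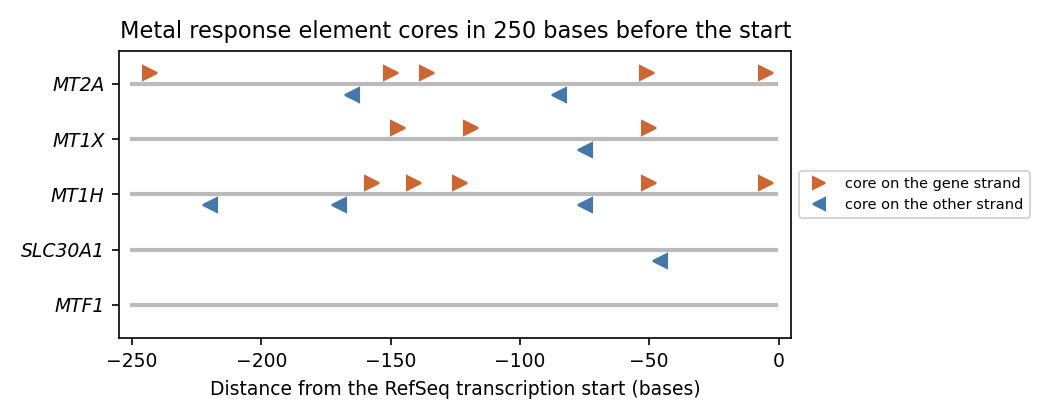
Positions of metal response element cores in the 250 bases before the RefSeq start of 5 members, with distance from the start in bases on the horizontal axis. Triangles pointing right are cores on the gene's strand and those pointing left are on the other strand. MT2A, MT1X and MT1H carry 7, 4 and 8 cores, SLC30A1 1 and MTF1 0.

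MT2A, the metallothionein with the highest level in these cells, had normalized values of 4529, 5028 and 5477 in Control and of 7894, 9319 and 10669 in DCC-2036. Every DCC-2036 library lay above every Control library. The mean went from 5011 ± 474 (SD, n = 3) to 9294 ± 1388 (SD, n = 3), or by 0.88 on the log2 scale (SE 0.15, 95% interval 0.53 to 1.24, limma adjusted p = 0.00285). Of all tested genes, 11.1% had a higher log2 fold change. The call was lost without Control replicate 1, Control replicate 2 or DCC-2036 replicate 2, at adjusted p-values of 0.0139, 0.0139 and 0.0136 (limma), with log2 fold changes of 0.81, 0.89 and 0.88.

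MT1E, a further metallothionein of the MT1 group, had the largest change of the tested members. Its values were 913, 1056 and 1056 in Control, against 2020, 2343 and 2691 in DCC-2036, so that the lowest DCC-2036 library stood well above the highest Control library. Mean MT1E was 1008 ± 82.7 (SD, n = 3) in Control and 2351 ± 335 (SD, n = 3) in DCC-2036, 2.33 times as high, and the log2 fold change was 1.21 (SE 0.14, 95% interval 0.88 to 1.55, limma adjusted p = 0.000861). Of all tested genes, 4.97% had a higher log2 fold change. Over the 17 other settings the log2 fold change of MT1E lay between 1.02 and 1.32 and the highest adjusted p-value was 0.00553 (limma), so that the call held in each of them.

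MT1X had values of 177, 213 and 226 in Control and of 307, 342 and 332 in DCC-2036. The groups did not overlap, and the 3 DCC-2036 libraries lay close together. Mean MT1X was 205 ± 25.4 (SD, n = 3) in Control and 327 ± 18.0 (SD, n = 3) in DCC-2036, and the log2 fold change was 0.68 (SE 0.13, 95% interval 0.37 to 0.98, limma adjusted p = 0.00446). The call of MT1X was lost with equal totals (0.48, adjusted p = 0.0117, limma) and after each library was corrected for GC content and transcript length (0.38, adjusted p = 0.0270, limma). It was also lost without any 1 of the Control libraries or DCC-2036 replicate 2, where the adjusted p-values of limma lay between 0.0115 and 0.0214. With a replicate block or no filter MT1X was not called either (adjusted p = 0.0114 and 0.0109, limma). MT1X is also the member whose sequence is shared most: 45.1% of its 50-base windows and 19.1% of its 100-base windows occur in transcripts of other genes in GENCODE 29, so its values may include reads of close copies.

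MT1F was the least abundant of the 4 in deposited values, with 39.4, 61.9 and 44.1 in Control, against 77.9, 102 and 117 in DCC-2036. The groups did not overlap, and Control replicate 2 was the library closest to the other group. Mean MT1F was 48.4 ± 11.9 (SD, n = 3) in Control and 98.8 ± 19.6 (SD, n = 3) in DCC-2036, 2.04 times as high, and the log2 fold change was 1.02 (SE 0.22, 95% interval 0.49 to 1.55, adjusted p = 0.00771, limma). The table lists a second transcript of MT1F, with values of 37.5, 61.9 and 43.2 in Control and of 75.8, 92.0 and 111 in DCC-2036, which follow the first in every library. The call of MT1F was lost with equal totals (0.82, adjusted p = 0.0131, limma) and after the same correction for GC and length (0.71, adjusted p = 0.0120, limma). It was also lost without Control replicate 1 or 3 or DCC-2036 replicate 2 or 3, where the adjusted p-values of limma lay between 0.0143 and 0.0312. With a replicate block or no filter MT1F was not called either (adjusted p = 0.0111 and 0.0172, limma).

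**Figure D2:**
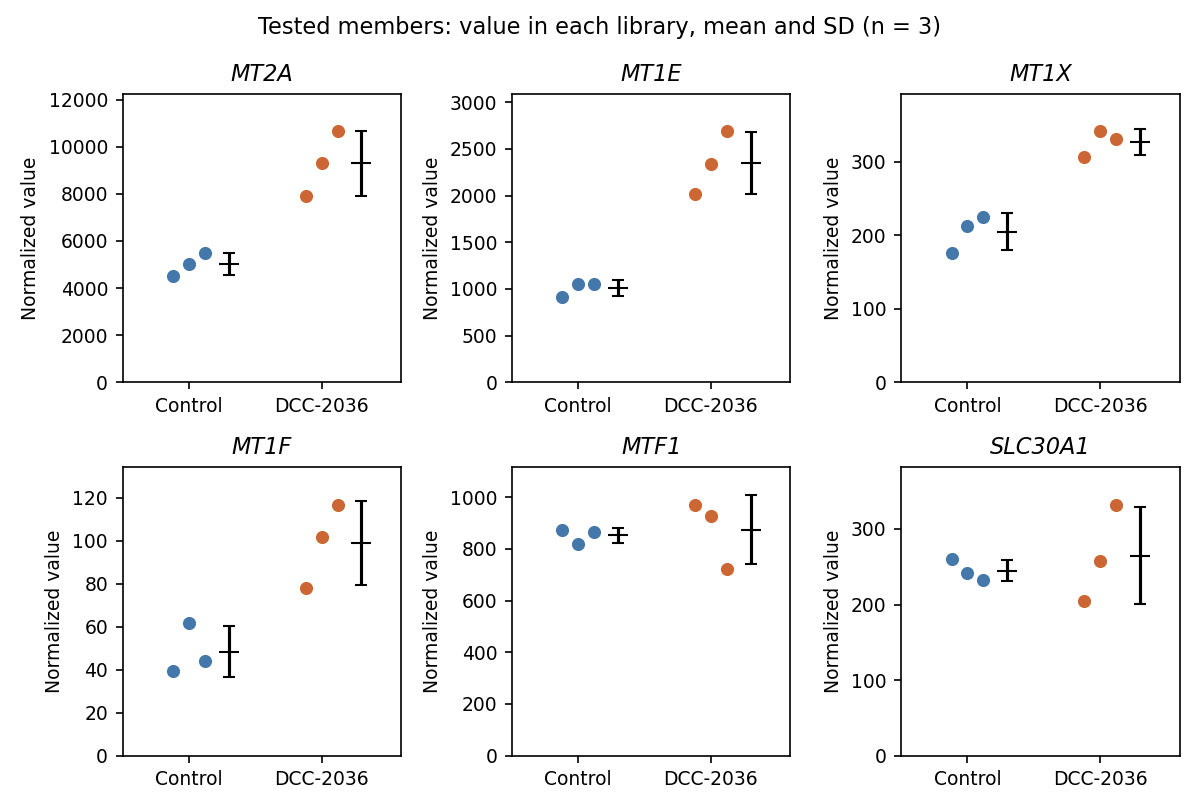
Normalized value (vertical axis, from 0) of the 6 tested members in each library, with the mean and SD of the 3 libraries beside the points. In MT2A, MT1E, MT1X and MT1F all DCC-2036 points lie above all Control points, and in MTF1 and SLC30A1 the groups overlap.

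MT1H and MT1M were listed at 0 in all 6 libraries. MT1A had a value of 0.905 in Control replicate 2 and of 1.03 in DCC-2036 replicate 1, each about what a single read is worth in its library, and at most 0.0139 in the others. MT1G had values of 0.945, 0.884 and 0 in Control and of 0.0189, 1.12 and 5.58 in DCC-2036, and only DCC-2036 replicate 3 exceeded the level of about 1 read. Values this far below 1 read occur in the DCC-2036 columns only, and the groups differ in their low values: each DCC-2036 column lists 5697 transcripts at 0 and has values down to 0.00326, 0.00702 and 0.0139, whereas the Control columns list 7844 to 8078 at 0 and hold no value above 0 under 0.606. The values of MT1A and MT1G amount to a handful of reads at most, and no fold is given for MT1A or MT1G. Of their 50-base windows, 20.2% in MT1G, 20.4% in MT1H, 7.05% in MT1M and 5.76% in MT1A occur in transcripts of other genes. In MT1E and MT2A the shares were 5.34% and 4.88%. Single reads may thus belong to a neighbour, with the largest shared part in MT1G and MT1H among these 6.

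Beyond the members, the table lists 4 of 5 other metallothionein genes looked for, and none of the 4 was tested. MT3, which is known from brain, MT4, known from squamous epithelium, and MT1HL1 were listed at 0 throughout. MT1B had values of 0.955, 0 and 0 in Control and of 4.17, 7.49 and 3.63 in DCC-2036, without overlap but at the level of a few reads. The metallothionein RNA of LoVo cells in these libraries was thus that of MT2A, MT1E, MT1X and MT1F.

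Summed over the 8 members, metallothionein values were 5659, 6360 and 6803 in Control, against 10300, 12107 and 13813 in DCC-2036. Reads assigned to one of these copies in place of another leave this sum as it is. It was 1.92 times as high in DCC-2036, from 6274 ± 577 (SD, n = 3) to 12073 ± 1757 (SD, n = 3), and without MT2A it was 2.20 times as high. With the libraries scaled to equal totals the ratio was 1.67, the lowest over the scalings and left-out libraries. MT2A, MT1E, MT1X and MT1F made up at least 99.96% of the sum in every library.

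Ratios between members show whether the 4 expressed metallothioneins moved alike. MT1E was 0.202, 0.210 and 0.193 of MT2A in Control, against 0.256, 0.251 and 0.252 of it in DCC-2036. This ratio does not depend on how a library is scaled, and it was higher in each DCC-2036 library than in each Control library, by 0.33 on the log2 scale (exact permutation test, 2-sided, p = 0.1, the smallest that 3 against 3 libraries allow, adjusted p = 0.136 over the 15 pairs of tested members). For MT1X relative to MT2A the log2 difference was -0.21, again without overlap between the groups (exact permutation p = 0.1). MT1F relative to MT2A moved by 0.14 with overlapping values (exact permutation p = 0.6). As a share of the sum, MT1E went from between 15.5% and 16.6% in Control to between 19.4% and 19.6% in DCC-2036, and MT2A from between 79.0% and 80.5% to between 76.6% and 77.2%.

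Per kilobase of transcript, the order of levels was MT2A, MT1E, MT1X, MT1F, MTF1 and SLC30A1 in both groups. In Control the mean levels per kilobase were 6376 for MT2A, 1432 for MT1E, 455 for MT1X, 116 for MT1F, 107 for MTF1 and 44.7 for SLC30A1. MT1F, at 94.6 to 149 in the Control libraries, and MTF1, at 103 to 109, did not differ beyond their spread there. In DCC-2036 they did not overlap, with 187 to 281 per kilobase for MT1F and 90.8 to 122 for MTF1. The remaining neighbours in this order did not overlap in either group. The deposited values are not per length, since the value of a single read was the same for transcripts of 213 to 17448 bases in Control replicate 1, and they were divided here by the transcript length in GENCODE 29.

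MTF1, the zinc-finger factor that senses zinc and drives metallothionein genes, had values of 872, 819 and 867 in Control and of 972, 930 and 724 in DCC-2036. DCC-2036 replicates 1 and 2 were above all Control libraries and replicate 3 below them. The log2 fold change was 0.03 (SE 0.14, 95% interval -0.31 to 0.36, adjusted p = 0.875, limma). With equal totals the value was -0.17 (adjusted p = 0.389, limma), so the data give MTF1 RNA no direction. A p-value that misses the limit does not show that MTF1 was the same in both groups.

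SLC30A1, the zinc exporter of the plasma membrane and a target of MTF1 together with the metallothioneins, had values of 260, 241 and 233 in Control and of 204, 258 and 332 in DCC-2036. One DCC-2036 library was below all Control libraries, one was among them and one above. For SLC30A1 the log2 fold change was 0.09 (SE 0.18, 95% interval -0.36 to 0.53, adjusted p = 0.695, limma), and it was -0.11 with equal totals. Relative to SLC30A1, MT2A was higher with DCC-2036 by 0.80 on the log2 scale and MT1E by 1.13, each without overlap between the groups (exact permutation p = 0.1).

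**Figure D3:**
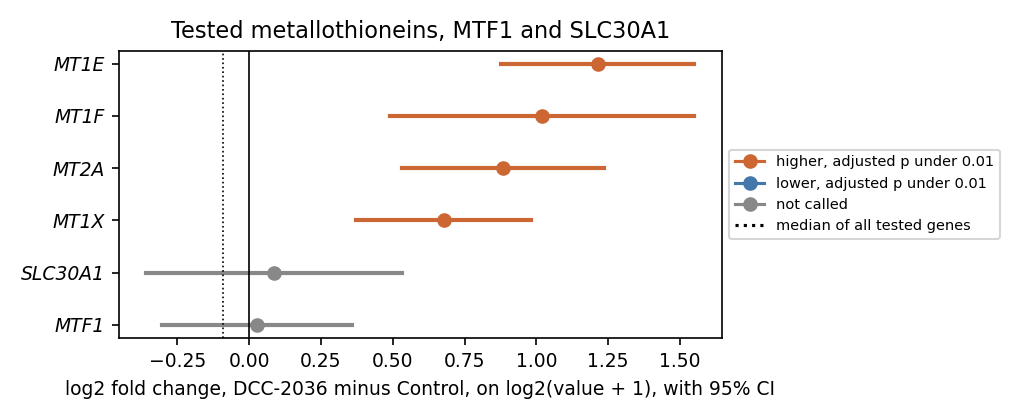
Log2 fold change of the 6 tested members (points) with the 95% interval from limma (bars), DCC-2036 minus Control, on log2(value + 1), with the median of all tested genes as a dotted line. The 4 metallothioneins lie between 0.68 and 1.21 and MTF1 and SLC30A1 near 0.

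Metallothionein transcripts are short, with 416 to 786 bases in the 4 expressed members. Of the 693 tested genes with a transcript of under 1000 bases, the median log2 fold change was 0.20, against -0.09 over all tested genes. Of these short genes, 20.8% were called higher and 15.0% lower, against 19.2% and 22.7% of all tested genes. After each library was corrected for its trend with GC content and length, a setting chosen after the data were seen, MT1E (1.22) and MT2A (0.90) kept their values and calls, while MT1X and MT1F were no longer called. Scaling by median of ratios or by the upper quartile kept all 4 calls.

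**Figure D4:**
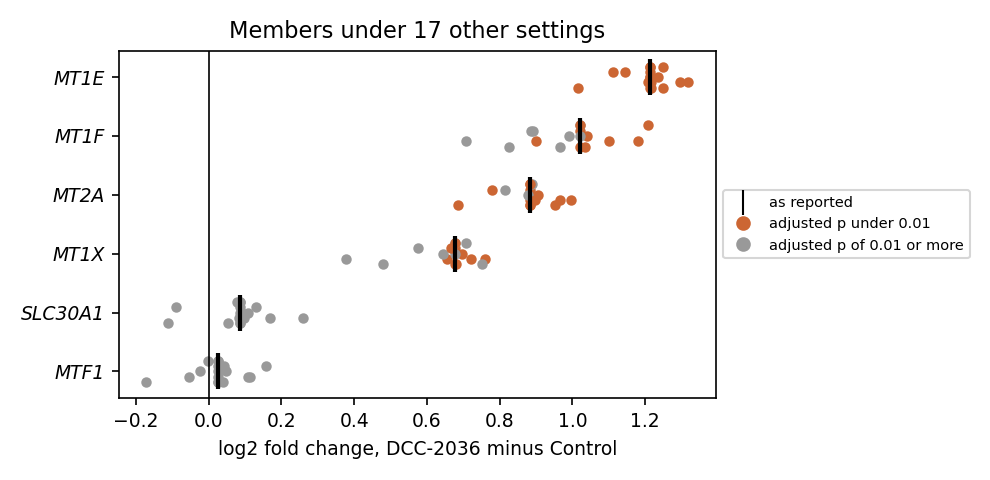
Log2 fold change of the 6 tested members under 17 other settings (points) beside the reported value (black bar), coloured by whether the adjusted p-value of limma was under 0.01. MT1E is called in all 17, MT2A in 14, and MT1X and MT1F in 9 each, while the points of MTF1 and SLC30A1 fall on both sides of 0.

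Zinc leaves the cytosol through the SLC30 exporters and enters it through the SLC39 importers. Besides SLC30A1, 6 of 9 SLC30 genes were tested, of which 3 were called lower and 1 higher, with a median log2 fold change of -0.84. Among all tested genes, 22.7% were called lower and 19.2% higher, with a median of -0.09. SLC30A5 and SLC30A6, which load zinc together into the early secretory pathway, had Control values of 906 to 941 and of 962 to 1021 and DCC-2036 values of 408 to 640 and of 392 to 548. The log2 fold change of SLC30A5 was -0.91 (adjusted p = 0.00525, limma) and that of SLC30A6 was -1.11 (adjusted p = 0.00127, limma). SLC30A9, assigned to zinc export from mitochondria, went from 1755 ± 124 (SD, n = 3) to 1032 ± 78.0, or -0.77 on the log2 scale (limma adjusted p = 0.00184).

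SLC30A3, best known from synaptic vesicles, was the SLC30 gene that rose, with values of 258, 260 and 249 in Control and of 456, 430 and 386 in DCC-2036 (log2 fold change 0.72, adjusted p = 0.00179, limma). SLC30A4 had values of 136, 101 and 108 in Control and of 77.6, 45.6 and 37.0 in DCC-2036 and was just short of the limit (-1.15, adjusted p = 0.0124, limma), which it passed in 6 of the 17 other settings. SLC30A7 had a log2 fold change of 0.08 (95% interval -0.14 to 0.30). SLC30A6 kept its call in all 17 other settings. The call of SLC30A5 was lost without any 1 of the Control libraries or DCC-2036 replicate 2, that of SLC30A9 without Control replicate 1 or 2, and that of SLC30A3 with equal totals and without Control replicate 2 or 3 or DCC-2036 replicate 2, with adjusted p-values from 0.0104 to 0.0223 (limma). SLC30A5 was also not called with a replicate block (adjusted p = 0.0130, limma) or with no filter (adjusted p = 0.0125, limma).

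Among the 14 importers of the SLC39 family, 11 were tested, 1 was called higher and 1 lower, and the median log2 fold change was 0.12. Over all tested genes, 19.2% were called higher and 22.7% lower. SLC39A9 had a mean of 1783 ± 69.0 (SD, n = 3) in Control and of 3363 ± 541 (SD, n = 3) in DCC-2036, 0.90 higher on the log2 scale (limma adjusted p = 0.00238), and all 3 DCC-2036 libraries were above all Control libraries. SLC39A3 fell from 475 ± 31.7 to 283 ± 61.4, or by 0.76 on the log2 scale (limma adjusted p = 0.00904), but the value was -0.45 (adjusted p = 0.109, limma) after the same correction for GC and length. SLC39A3 was also not called with median of ratios (-0.68, adjusted p = 0.0184, limma) or upper quartile scaling (-0.74, adjusted p = 0.0117, limma), and kept its call in 8 of the 17 other settings. Without any 1 of the Control libraries or DCC-2036 replicate 2, neither was called, with adjusted p-values from 0.0109 to 0.0366 (limma). SLC39A3 was also not called with a replicate block or no filter.

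SLC39A6, the importer with the highest mean deposited value over all 6 libraries, had a log2 fold change of 0.20 (95% interval -0.06 to 0.45, adjusted p = 0.148, limma). SLC39A10, a gene that MTF1 is known to repress when zinc is high, had values of 954, 979 and 907 in Control and of 742, 674 and 486 in DCC-2036. Its groups did not overlap, and its log2 fold change of -0.60 (SE 0.17, adjusted p = 0.0221, limma) did not pass the limit. SLC39A7, which releases zinc from the endoplasmic reticulum, and SLC39A8 were also without overlap, at 0.29 (adjusted p = 0.0344, limma) and 0.41 (adjusted p = 0.0121, limma). Among all tested genes, 71.1% had groups that did not overlap. SLC39A8 passed the limit in 4 of the 17 other settings and SLC39A10 in 2. SLC39A7 passed it in 1, the correction for GC and length (0.53, adjusted p = 0.00416, limma), and was at 0.09 with equal totals.

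**Figure D5:**
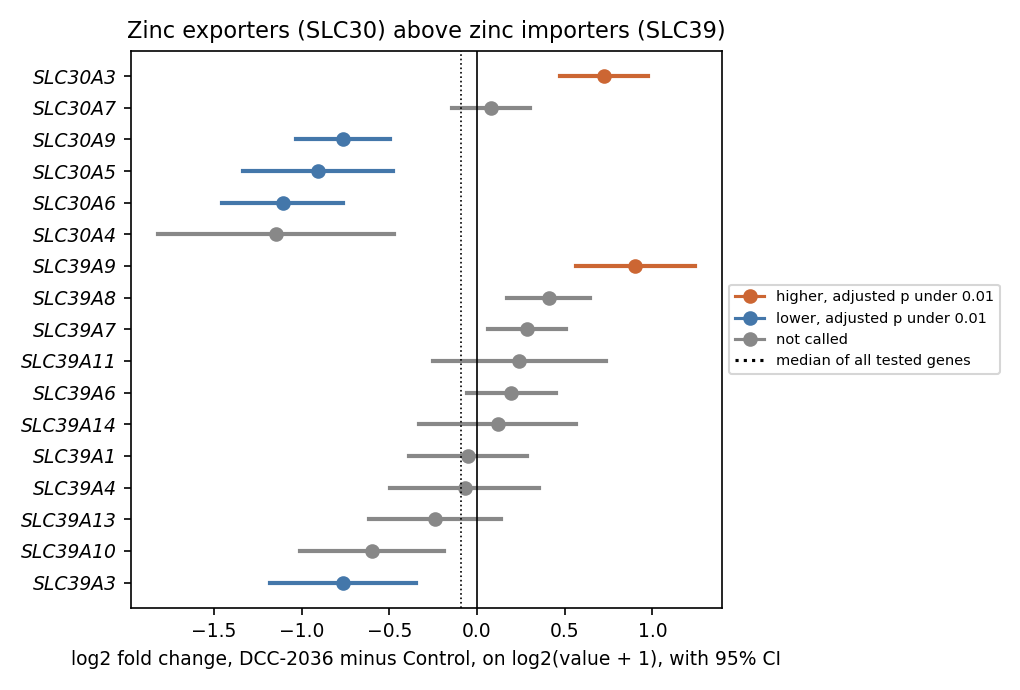
Log2 fold change of the tested SLC30 exporters other than SLC30A1 (upper 6) and SLC39 importers (lower 11), DCC-2036 minus Control, with 95% intervals from limma and the median of all tested genes as a dotted line. SLC30A6, SLC30A5, SLC30A9 and SLC39A3 are called lower, and SLC30A3 and SLC39A9 higher.

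BBS2 and NUP93, which lie next to the metallothionein genes on chromosome 16 and were named after the data were seen, had log2 fold changes of 0.04 each (adjusted p = 0.782 and 0.725, limma).

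The profile of MT2A over the 6 libraries was closely like those of VPS39, EIF4H, OAZ1 and CNIH1, with Pearson's r of log2(value + 1) of 1.000, 0.999, 0.999 and 0.999. Such likeness was common, as 1964 tested genes had an r above 0.95 with MT2A, and all these genes are measured in the same 6 libraries of 2 groups. SLC30A1 was most like SLC16A6, HSBP1L1, GPR3, TRA2A and IER2, with r from 0.987 to 0.993, and 34 genes had an r above 0.95 with it. Among the members, MT2A and MT1E had an r of 0.993, and MT2A and SLC30A1 one of 0.415.

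The libraries held column totals of 38997229 to 48023306 in adjusted values, higher in each DCC-2036 library than in each Control library, and the reads behind them are unknown. Of 8 epithelial colon markers, KRT8, KRT18, EPCAM, CDH1 and CDX2 had mean values above 100 in both groups, whereas VIL1 and CEACAM5 were under 10 in every library. The summed epithelial markers were 81126 to 90776 in Control and 124482 to 163008 in DCC-2036, led by KRT8 with a log2 fold change of 0.84 (adjusted p = 0.00287, limma), a call lost without any 1 of the Control libraries or DCC-2036 replicate 2. Of the 6 epithelial markers tested, KRT8 and CDH1 were called higher, and 3 were not called. KRT20 was called lower, from 53.1 ± 10.3 to 23.4 ± 5.25 (SD, n = 3, log2 fold change -1.15, adjusted p = 0.00427, limma). The shares over all tested genes were 19.2% higher and 22.7% lower. Of 7 immune markers, 5 were under 10 in every library, among them PTPRC and CD3D at 0, and the sum was 228 to 274 in Control and 222 to 311 in DCC-2036, nearly all of it CD68. The 7 fibroblast markers summed to 370 to 443 in Control and 454 to 554 in DCC-2036, mostly COL1A1 (0.28, adjusted p = 0.0902, limma), and the 4 endothelial markers summed to 10.5 to 15.7 in Control and 15.4 to 41.3 in DCC-2036. No fibroblast or endothelial marker was at 0 in all libraries, and 2 and 3 of them were under 10 in every library. The part of these markers in the metallothionein result was not tested.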

How the data were processed

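RNA-seq of LoVo cells was analysed in 3 Control and 3 DCC-2036 libraries, grouped by their titles. The deposited table gives a normalized signal per transcript and library, which the authors adjusted to a common depth, with single reads near 1, so read depth is unknown. The deposited table also holds the authors' own comparison, as log2 fold change, p-value and q-value per transcript, and these columns were not used. Aligner, genome build and read length are not given in the sources used here. There were 0 other columns of values per sample.

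The transcript of highest mean stood for each symbol. A value of 10 or more in 3 or more libraries was required, log2(value + 1) was fitted with limma 3.58.1 in R 4.3.3 without covariates, and calls used a Benjamini-Hochberg adjusted p-value under 0.01. The code was tested on simulated data. Ratios between members were compared by exact permutation (numpy 2.4.6, Python 3.11.15). Means are given ± SD, and standard errors and 95% intervals are those of limma. Transcript lengths, GC content and shared windows came from GENCODE 29 (GRCh38), promoters from RefSeq (GRCh38.p14). Gene positions are in GRCh38, and none was converted.

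The members and gene lists were chosen with earlier results of these data known. Named were all 10 members, in each other list the called genes with a mean of at least 100, up to the 4 with the largest change, the gene of highest mean, and the 5 genes most like MT2A and SLC30A1. A few results that this rule or a look at neighbouring genes gave are not reported here. SLC30A4, SLC30A7, SLC39A7, SLC39A8, SLC39A10, GCLC, KLF9, BBS2, NUP93, HSPA1A, KRT20 and the single markers without a call were named after their values were seen. Alternatives were other scalings, filters and pseudocounts (0.1 and 10), a replicate block, each library left out, an adjusted p limit of 0.05, a log2 limit of 1, limma with a trend, all transcripts, and a GC and length correction added after the data were seen.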

Additional observations from a re-analysis of the deposited data

How the results depend on the processing

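Against 2442 genes called higher and 2887 lower, with 4 members higher, the replicate block gave 1202 and 1909 with 2 members (MT1E and MT2A). Same-numbered libraries did not deviate together (correlations of 0.0810, -0.0352 and -0.00329), so the numbers were not taken to pair samples. Leaving out 1 library gave 928 to 2675 genes higher, 1514 to 3507 lower and 1 to 4 members. All transcripts tested apart gave 6379 higher and 7250 lower among 32323, because more features were tested. A log2 limit of 1 left 944 genes higher and 2 members. Members called were also 2 with equal totals, with no filter, and after removal of the GC and length trend, a setting chosen after seeing the data. The cause of these differences was not tested. In these settings and those with 1 library left out, 0 members were called lower. Among the 37 genes followed, signs changed only in some without a call. With equal totals they changed for MTF1 (-0.17), SLC30A1 (-0.11), SLC30A7 (-0.12) and SLC39A6 (-0.0024). They changed with median of ratios for CD68 (0.045), and after removal of that trend for CD68 (0.18) and PER1 (0.17). Other named genes, among them BBS2 and NUP93, were not followed, so their signs under the alternatives are not known. With 1 library left out the ranges were -0.055 to 0.16 for MTF1, -0.090 to 0.26 for SLC30A1, -0.18 to 0.0055 for PER1 and -0.15 to 0.071 for CD68. Of 37 genes followed, 10 stayed on the same side of the limit, with the same direction, in every alternative run for them (17, or 16 for COL1A1 and VWF, which were not called in any), 21 kept the direction only, and 6 changed sign. The log2 ratio of summed metallothioneins lay between 0.74 (equal totals) and 1.14 (without MT2A). Read depth is unknown, and MT1A, MT1G, MT1H, MT1M and MT1B are too low to be compared.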

Other observations

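Of 8 tested genes that heavy metals are known to induce together with metallothioneins, 3 were called higher, 2 lower and 3 in neither direction. The median log2 fold change of the 8 was 0.32. Among all tested genes, 19.2% were called higher and 22.7% lower, with a median of -0.09. HMOX1, the enzyme that degrades heme, rose from 790 ± 29.7 (SD, n = 3) to 1422 ± 57.3 (log2 fold change 0.85, adjusted p = 0.00079, limma). GCLC, which makes the first step of glutathione synthesis, had 0.69 (adjusted p = 0.00296, limma) and TXNRD1, a thioredoxin reductase, 0.73 (adjusted p = 0.00981, limma). Of 3 heat shock genes, DNAJB1 fell from 6231 ± 311 to 2919 ± 329 (-1.10, adjusted p = 0.000711, limma), HSPA1B had a log2 fold change of -0.79 (adjusted p = 0.00253, limma), and HSPA1A one of -0.58 that was not called (adjusted p = 0.131, limma). HSPA1A and HSPA1B are near-identical copies that may share reads, so their separate values are uncertain. HMOX1 and DNAJB1 kept their calls in all 17 alternatives. The calls of GCLC, TXNRD1 and HSPA1B were lost without any 1 of the Control libraries or DCC-2036 replicate 2, that of TXNRD1 also without DCC-2036 replicate 3. With a replicate block GCLC, TXNRD1 and HSPA1B were not called, and with no filter TXNRD1 was not. TXNRD1 was also not called with equal totals (0.53, adjusted p = 0.0169), upper quartile scaling (adjusted p = 0.0101), a pseudocount of 0.1 (adjusted p = 0.0105) or the GC and length correction (adjusted p = 0.0124, all limma), and kept its call in 6 of the 17 alternatives.

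Among 6 tested genes of the glucocorticoid response, which also reaches metallothionein promoters, 3 were called higher, 1 lower and 2 in neither direction. Their median log2 fold change was 0.97. Over all tested genes the median was -0.09, and 19.2% were called higher and 22.7% lower. TSC22D3 had values of 126, 104 and 119 in Control and of 955, 1487 and 2069 in DCC-2036, 12.9 times as high (log2 fold change 3.62, standard error 0.28, adjusted p = 0.000287, limma). SGK1, a kinase of ion transport, had a log2 fold change of 1.14 (adjusted p = 0.00255, limma), and the receptor NR3C1 one of 0.90 (adjusted p = 0.00169, limma). FKBP5, a chaperone of the receptor, fell by 0.84 on the log2 scale (adjusted p = 0.00679, limma), and PER1 was at -0.11 (adjusted p = 0.478, limma). KLF9 had a log2 fold change of 1.04 without overlap between the groups, but was not called (adjusted p = 0.0191, limma). TSC22D3 kept its call in all 17 alternatives, SGK1 lost it without Control replicate 3, NR3C1 without Control replicate 2, and FKBP5 without any 1 of the Control libraries or DCC-2036 replicate 2. FKBP5 was also not called with a replicate block or no filter.

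Of 10 genes of copper handling, 2 were called higher, 1 lower and 7 in neither direction, with a median log2 fold change of 0.08. Over all tested genes, 19.2% were called higher and 22.7% lower. SCO1, which delivers copper to cytochrome oxidase, had values of 980, 1019 and 981 in Control and of 1829, 2095 and 2700 in DCC-2036 (log2 fold change 1.13, adjusted p = 0.00156, limma) and kept its call in all 17 alternatives. ATOX1, the copper chaperone of the secretory pathway, rose by 0.78 on the log2 scale (adjusted p = 0.00404, limma) and COX17, a mitochondrial copper chaperone, fell by 0.58 (adjusted p = 0.00674, limma). ATOX1 and COX17 were not called without any 1 of the Control libraries or DCC-2036 replicate 2, and COX17 also without DCC-2036 replicate 1 and with scaling by median of ratios (-0.50, adjusted p = 0.0163, limma). With no filter neither was called, and with a replicate block COX17 was not.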
